A study of Mus musculus with 6 samples.

Results

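The genes described here are 6 that control the G1 phase of the cell cycle, the D-type cyclins *Ccnd1*, *Ccnd2* and *Ccnd3*, the kinases *Cdk4* and *Cdk6*, and the inhibitor *Cdkn1b*. They were chosen by name out of 40478 mouse RefSeq genes with a known strand, and every cluster that overlapped the body of one of them by at least 1 nt on its own strand was taken. This gave 88 of 359172 AGO2 clusters in the WT library, 145 of 616014 in the first *Mov10* Deletion library and 145 of 616005 in the second. It also gave 10 of 22074, 21 of 30526 and 9 of 13468 miRNA assignments of chimeric clusters in the same order. The libraries are chimeric eCLIP of AGO2, the Argonaute protein that carries miRNAs, from whole brain of C57Bl/6J mice on the day of birth (P0). In this assay RNA is crosslinked to AGO2 by UV light and immunoprecipitated (IP), and a miRNA can be ligated to the target RNA held in the same complex, so that a chimeric read names both. There was 1 WT brain library and 2 *Mov10* Deletion brain libraries, replicates 1 and 2, called Deletion 1 and Deletion 2 here, each with a size-matched input. *Mov10* Deletion mice carry a floxed *Mov10* allele that *Emx1*-Cre recombines in excitatory cells of the cortex and hippocampus, and were bred from *Mov10* heterozygous mutants, so that other cells of the whole brain can keep a *Mov10* allele. The strain is common to all libraries.

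In G1, D-type cyclins bind and activate CDK4 and CDK6, and the complexes phosphorylate the retinoblastoma protein, which releases E2F transcription factors and opens the way to S phase. *Cdkn1b* encodes a protein that binds cyclin-CDK complexes and holds cells out of the cycle. In the developing brain these genes bear on whether a progenitor divides again or leaves the cycle as a neuron. A miRNA guides AGO2 to an mRNA mainly by pairing of its seed, nucleotides 2 to 8, with the 3'UTR. miR-124 is abundant in neurons, and miR-9 in neural progenitors and neurons.

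The chimeric clusters of the 6 genes named 13 miRNAs. Mature sequences for 12 of them were matched by name in RefSeq (GRCm38.p6), and those on which the results turn are shown 5′ to 3′ with the seed in capitals. miR-130a-3p was named in *Ccnd3*, miR-26a-5p and miR-9-3p in *Ccnd2*, miR-9-5p in *Ccnd1* and *Ccnd2*, and miR-17-5p and miR-20a-5p at a single place in *Ccnd1*. In *Cdkn1b*, let-7i-3p and miR-125b-5p were named at a single place, and miR-125b-5p was also named in *Ccnd2*. miR-17-5p and miR-20a-5p share their seed, and the seeds of the others shown differ from each other.
miR-130a-3p: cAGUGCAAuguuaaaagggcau
miR-26a-5p: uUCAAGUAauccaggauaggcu
miR-9-3p: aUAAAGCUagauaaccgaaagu
miR-9-5p: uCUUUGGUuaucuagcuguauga
miR-17-5p: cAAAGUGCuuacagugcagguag
miR-20a-5p: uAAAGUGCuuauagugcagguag
let-7i-3p: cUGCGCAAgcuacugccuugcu
miR-125b-5p: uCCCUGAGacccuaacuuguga

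Seed matches are given in 1 GENCODE vM39 transcript of each gene but *Ccnd3*, for the 16 assignments that lay on its exons and named a miRNA with a matched sequence. A match to all 7 seed nucleotides lay inside the cluster for 4 assignments, a match to 6 of them (nucleotides 2 to 7 or 3 to 8) lay inside for 3, and the other 9 assignments had neither inside or within 30 nt. The windows on which the results turn are shown from the transcripts (GRCm39), 5′ to 3′ on the sense strand, with the match in capitals. They are the match to miR-26a-5p (chr6:127105889-127105895, minus strand) and that to miR-9-3p (chr6:127103570-127103576, minus strand) in the *Ccnd2* 3'UTR, and the match to miR-17-5p and miR-20a-5p in the *Ccnd1* coding sequence (chr7:144487780-144487786, minus strand).
*Ccnd2* and miR-26a-5p: aagttgtattcattgTACTTGAagaccccc
*Ccnd2* and miR-9-3p: gtcatataggttgctAGCTTTAaggtgcat
*Ccnd1* and miR-17-5p or miR-20a-5p: ctgctaccgcacaacGCACTTTctttccag
Of all windows of the cluster's length in the same transcript, 0.238% held TACTTGA and 1.40% held AGCTTTA in *Ccnd2*, and 3.0% held GCACTTT in *Ccnd1*. A match describes these letters and is no measurement of pairing.

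In *Ccnd3* the 3'UTR held no 7-nt match to miR-130a-3p (TTGCACT). Other matches in *Ccnd3* to the miRNAs named there are not reported here.

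The values are those the authors deposited for each AGO2 cluster, its IP over input as a log2 and its p-value as a −log10, and for each chimeric cluster a miRNA and a score that the sources used here do not describe. Enriched clusters are those where both the log2 and the −log10 p reach 3. Total depth is unknown, so the reads of a cluster were worked out as the pair of whole read numbers, IP and input, from which both its ratio and its p-value follow. These inferred reads are no counts of the authors. The 95% intervals from them cover counting error only, and where 1 input read was inferred the true number may be 0. A cluster over 1 input read needed 16 inferred IP reads to be enriched in WT but 9 in Deletion 1 and 8 in Deletion 2, so the call is not equally easy in the 3 libraries. The Deletion libraries shared the coordinates of all 145 clusters in the 6 genes, and WT shared none with Deletion 1, so that only the enrichment is a separate measurement in each Deletion brain. A WT value beside a Deletion value is that of the WT cluster overlapping the place, which can differ in width. The 3785 chimeric assignments with equal coordinates and miRNA in both Deletion libraries were also all those that overlapped between them. With 1 WT library, no test between the genotypes was made. As the brains are bulk samples, fewer cells of a type and less RNA of a gene per cell cannot be told apart.

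The tissue label was checked on genes listed as markers of brain or of other tissues. Whether the latter are also expressed in brain was not checked. All 10 brain markers (neuronal, progenitor and glial genes) had AGO2 clusters in each library, with medians of 24, 34 and 34.5 clusters a gene in WT, Deletion 1 and Deletion 2. Of 9 liver, muscle and blood markers 6 had any, with a median of 1 in each library, and *Apoa1*, *Myh6* and *Tnnt2* had none. Enrichment went the other way. Of the 9, 4 (*Actn2*, *Hbb-bs*, *Hbb-bt* and *Ttr*) were enriched in all 3 libraries, against 1 of the 10 brain markers (*Syt1*). By library, 2, 7 and 4 brain markers and 5, 5 and 4 of the others were enriched. Cluster numbers were not adjusted for gene length, so the check does not settle the tissue. *Mov10* itself had 1 enriched cluster in WT and none in the Deletion libraries, where the highest log2 was 2.80 and 2.84 against 4.0 in WT. What part the mixture of cells had in the values that follow was not tested.

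WT had an enriched cluster in 2 genes, *Ccnd3* and *Cdk6*. Deletion 1 had one in all 6, and Deletion 2 in 5, all but *Ccnd3*. Among all genes with an AGO2 cluster, 19.1% had an enriched one in WT, 41.5% in Deletion 1 and 32.5% in Deletion 2, and 24.5% had one in both Deletion libraries, where 5 of the 6 genes did. The numbers of genes in WT and Deletion 2 depend on the limits. With a log2 limit of 2 they were 5 and 5, beside 6 in Deletion 1, and when each library needed 16 or more inferred IP reads they were 2 and 2, beside 5. Counted by cluster, 4 of 88 were enriched in WT (4.55%), 16 of 145 in Deletion 1 (11%) and 8 of 145 in Deletion 2 (5.52%), beside 2.1%, 5.17% and 3.1% of all clusters on the sense strand of a gene. The background thus rises from WT to the Deletion libraries as well, and the difference between the genotypes for the 6 genes was not tested. The median log2 over the clusters of the 6 genes was 1.53 in WT, 2.38 in Deletion 1 and 1.25 in Deletion 2, beside 0.76, 1.12 and 1.25 over all clusters in genes. The 1.25 of Deletion 2 is the value of a cluster with equal inferred IP and input reads, a 2.39-fold IP over input in that library. This fold was 0.84 in WT and 1.74 in Deletion 1, and the medians were not compared between libraries.

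**Figure D1:**
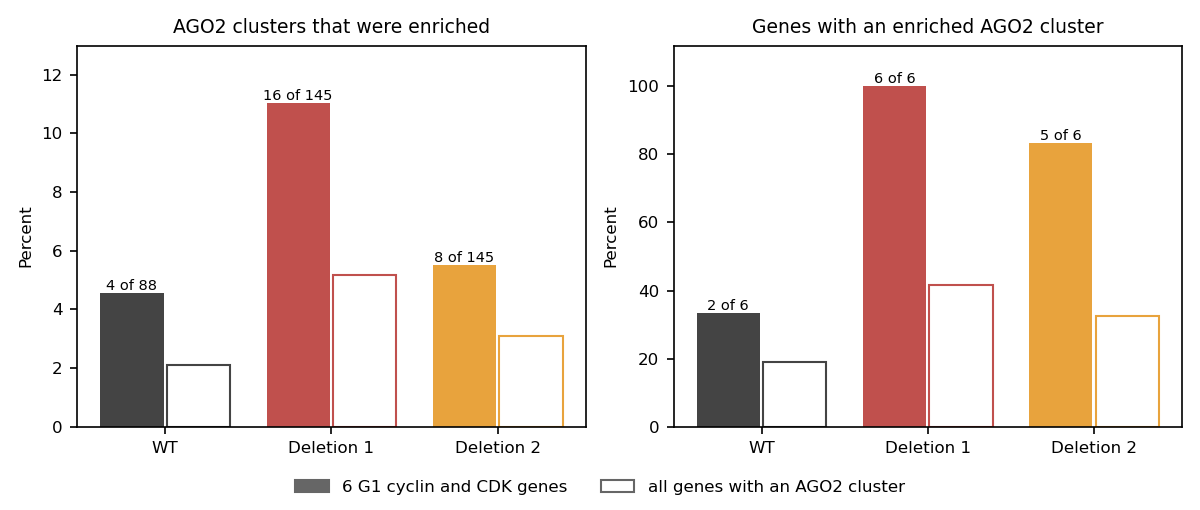
Percent of AGO2 clusters that were enriched (left) and percent of genes with an enriched AGO2 cluster (right) in WT, Deletion 1 and Deletion 2, for the 6 genes (filled bars, with counts) and for all genes with an AGO2 cluster (open bars). The filled bar stands above the open bar in each library, and the open bars are also higher in the Deletion libraries than in WT.

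The enriched clusters fell into 17 separate sites, of which 11 lay in a 3'UTR, 5 in an intron and 1 in a coding exon of the GENCODE transcript. By library, 2 of 4 enriched clusters lay in a 3'UTR in WT, 13 of 16 in Deletion 1 and 5 of 8 in Deletion 2. Among all clusters of the 6 genes it was 38 of 88, 64 of 145 and 64 of 145. Of the 17 sites, 4 were enriched in WT, 14 in Deletion 1 and 6 in Deletion 2. Both Deletion libraries were enriched at 4 of them, 1 in *Ccnd1*, 2 in *Ccnd2* and 1 in *Cdkn1b*. *Cdk4* and *Cdk6* counted as enriched in both Deletion libraries at sites that differed between the libraries. WT and Deletion 1 shared 3, namely 2 in *Ccnd3* and 1 in *Cdk6*, WT and Deletion 2 shared 0, and no site was enriched in all 3. WT had a cluster of its own at 9 of the 17 sites. The enriched clusters lay within 5000 nt of the gene's 3' end for 2 of 4 in WT (50%, exact Clopper-Pearson 95% interval 6.76 to 93.2). It was 13 of 16 in Deletion 1 (81.3%, 54.4 to 96.0) and 6 of 8 in Deletion 2 (75%, 34.9 to 96.8). The intervals overlap widely and treat the clusters of a library as independent. The whole of *Cdk4* is shorter than 5000 nt and *Cdkn1b* is little longer, so their clusters count almost by length alone. The intronic *Cdk4* cluster of Deletion 2 and the coding-exon *Cdkn1b* cluster of Deletion 1 counted. The *Cdk6* 3'UTR cluster of Deletion 1 did not. No share over all clusters was worked out, so a preference for the 3' end was not tested. Antisense clusters numbered 8 in WT, with none enriched, and 0 in either Deletion library.

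**Figure D2:**
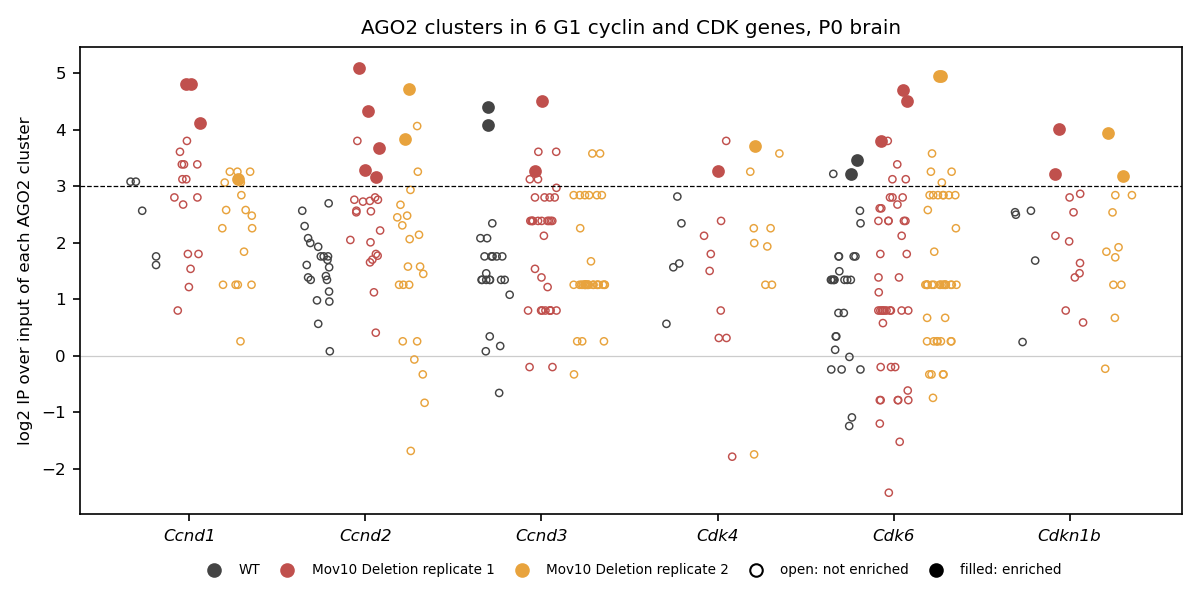
log2 IP over input of every AGO2 cluster in the 6 genes by library, with enriched clusters filled and the limit of 3 dashed. Open points above the line had a −log10 p under 3, and *Ccnd1*, *Ccnd2*, *Cdk4* and *Cdkn1b* have no filled WT point.

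The D-type cyclins are described first. *Ccnd1* (mm10 chr7:144929931-144939831, minus strand), the cyclin that growth signals induce most directly, had 5 clusters in WT and 18 in each Deletion library. Its strongest recurring site was nucleotides 1943 to 2046 of the 2676-nt 3'UTR (chr7:144930561-144930664). The log2 there was 1.76 in WT, 4.80 in Deletion 1 and 3.13 in Deletion 2. The WT cluster was 278 nt wide and the Deletion cluster 104 nt, so these ratios are over regions of unequal width. WT lay below both Deletion libraries, and its 95% interval of 0.53 to 3.2 (28 inferred IP over 7 input reads) overlapped those of Deletion 1, 2.11 to 10.2 (16 over 1 read), and Deletion 2, 1.21 to 5.61 (11 over 3 reads). Chimeric clusters that named miR-9-5p overlapped this site in WT, with a score of 4.71, and in Deletion 1, with a score of 4, and neither held a seed match to miR-9-5p. A second site nearer the 3' end, at nucleotides 2193 to 2301 (chr7:144930306-144930414), was enriched in Deletion 1 alone. Its log2 was 4.80 in Deletion 1, with a −log10 p of 5.96, and 1.84 in Deletion 2, with a −log10 p of 0.80, and WT had no cluster there. In Deletion 1 this site was named for miR-191-5p with a score of 3.07, and it held a 6-nt match to nucleotides 3 to 8 of that miRNA. In WT the only other chimeric cluster lay in the coding sequence at chr7:144934013-144934077 and named both miR-17-5p (score 3.03) and miR-20a-5p (3.05), with the shared 7-nt match shown above. No Deletion library had a chimeric cluster there, and Deletion 2 had none in *Ccnd1* at all.

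*Ccnd2* (chr6:127125162-127152188, minus strand), the D-type cyclin best known from neural progenitors, had the most chimeric assignments of the 6 genes, with 4 in WT, 7 in Deletion 1 and 4 in Deletion 2. Most of its AGO2 clusters lay in its 5173-nt 3'UTR, 17 of 21 in WT and 19 of 23 in each Deletion library. Clusters that reached a −log10 p of 3 numbered 5 in WT, 18 in Deletion 1 and 6 in Deletion 2, while those also past the log2 limit numbered 0, 5 and 2. The site with the most reads covered nucleotides 4417 to 4596 (chr6:127125739-127125918). Here WT had a log2 of 2.69 (69 over 9 reads, 95% interval 1.69 to 3.88) with a −log10 p of 8.59, just under the log2 limit. In the cluster with the most reads at this site, Deletion 1 had 3.16 (77 over 15 reads, 2.35 to 4.06) and Deletion 2 had 2.31 (29 over 14 reads, 1.34 to 3.34), so the 3 intervals overlapped and WT lay between the Deletion libraries. The enriched call of Deletion 2 at this site came from the adjoining 47-nt cluster, with a log2 of 4.71 (11 over 1 read), where Deletion 1 had 5.08 (39 over 2 reads). miR-124-3p was named at this place in every library, with a score of 15.9 in WT and 4.15 in Deletion 1. Deletion 2 named it in 3 adjoining clusters with scores of 4.18 to 5.34. Among them, chr6:127125772-127125860 (score 4.51) had the coordinates of the Deletion 1 cluster. The WT cluster also named miR-26a-5p, with a score of 3.34 and no seed match.

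A second *Ccnd2* site, nucleotides 1821 to 1916 (chr6:127128419-127128514), had a lower value in WT than in either Deletion library. The log2 was 1.76 in WT (48 over 12 reads, 0.82 to 2.80), 3.28 in Deletion 1 (39 over 7, 2.10 to 4.68) and 3.84 in Deletion 2 (30 over 5, 2.46 to 5.56). The WT value lay below both lower limits of the Deletion intervals and the intervals themselves overlapped. No chimeric cluster covered this site. At nucleotides 1345 to 1418 (chr6:127128917-127128990) the log2 was 1.69 in WT (23 over 6 reads), 4.32 in Deletion 1 (23 over 2) and 4.06 in Deletion 2 (7 over 1), and the last had a −log10 p of 2.93, short of the limit of 3. Deletion 1 named miR-26a-5p here with a score of 3.06, in a 21-nt chimeric cluster that held the TACTTGA shown above. The fourth site, nucleotides 612 to 649 (chr6:127129686-127129723), was enriched in Deletion 1 with a log2 of 3.67 (22 over 3 reads), Deletion 2 had 3.25 with a −log10 p of 1.54 (4 over 1), and WT had no cluster.

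A further miR-124-3p cluster of *Ccnd2* lay at overlapping positions in WT (nucleotides 3860 to 3905, score 9.34) and Deletion 1 (3870 to 3910, score 3.78), on no enriched AGO2 cluster. The other *Ccnd2* assignments each appeared in a single library. Deletion 1 named miR-9-3p, with the 7-nt match shown above, miR-9-5p and miR-125b-5p, each with a 6-nt match, and miR-128-3p in a coding exon with none. Deletion 2 named miR-9-5p elsewhere, at nucleotides 824 to 873, with no match. WT named miR-124-3p in an intron at chr6:127146451-127146545 with a score of 5.83.

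*Ccnd3* (chr17:47505051-47599689, plus strand), the D-type cyclin of the widest tissue range, differed from the other cyclins in being enriched in WT. It was enriched in Deletion 1 as well and not in Deletion 2, although 35 clusters were listed in each Deletion library and 23 in WT. Most of these, 20 in WT and 28 in each Deletion library, lay upstream of the GENCODE transcript used, and both enriched sites lay in its 923-nt 3'UTR. At nucleotides 72 to 237 (chr17:47598848-47599013) the log2 was 4.40 in WT (25 over 1 read, 95% interval 1.79 to 9.76), 4.50 in Deletion 1 (39 over 3, 2.85 to 6.84) and 2.25 in Deletion 2 (6 over 3, 0.027 to 4.88). Deletion 2 was the lowest, on few reads, and all intervals overlapped. Chimeric clusters named miR-130a-3p here in both Deletion libraries at the same coordinates, nucleotides 119 to 189, with scores of 12.2 and 6.56, and Deletion 1 had a second beside it with a score of 5.61. The 12.2 is the highest score of the 6 genes in Deletion 1. WT had no chimeric cluster in *Ccnd3*, despite its enriched AGO2 cluster. At nucleotides 287 to 418 (chr17:47599063-47599194) the log2 was 4.08 in WT, 3.26 in Deletion 1 and 1.67 in Deletion 2, with −log10 p values of 4.14, 3.28 and 0.69. Deletion 1 also named miR-124-3p near the end of the 3'UTR, at nucleotides 875 to 905 (score 5.69).

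**Figure D3:**
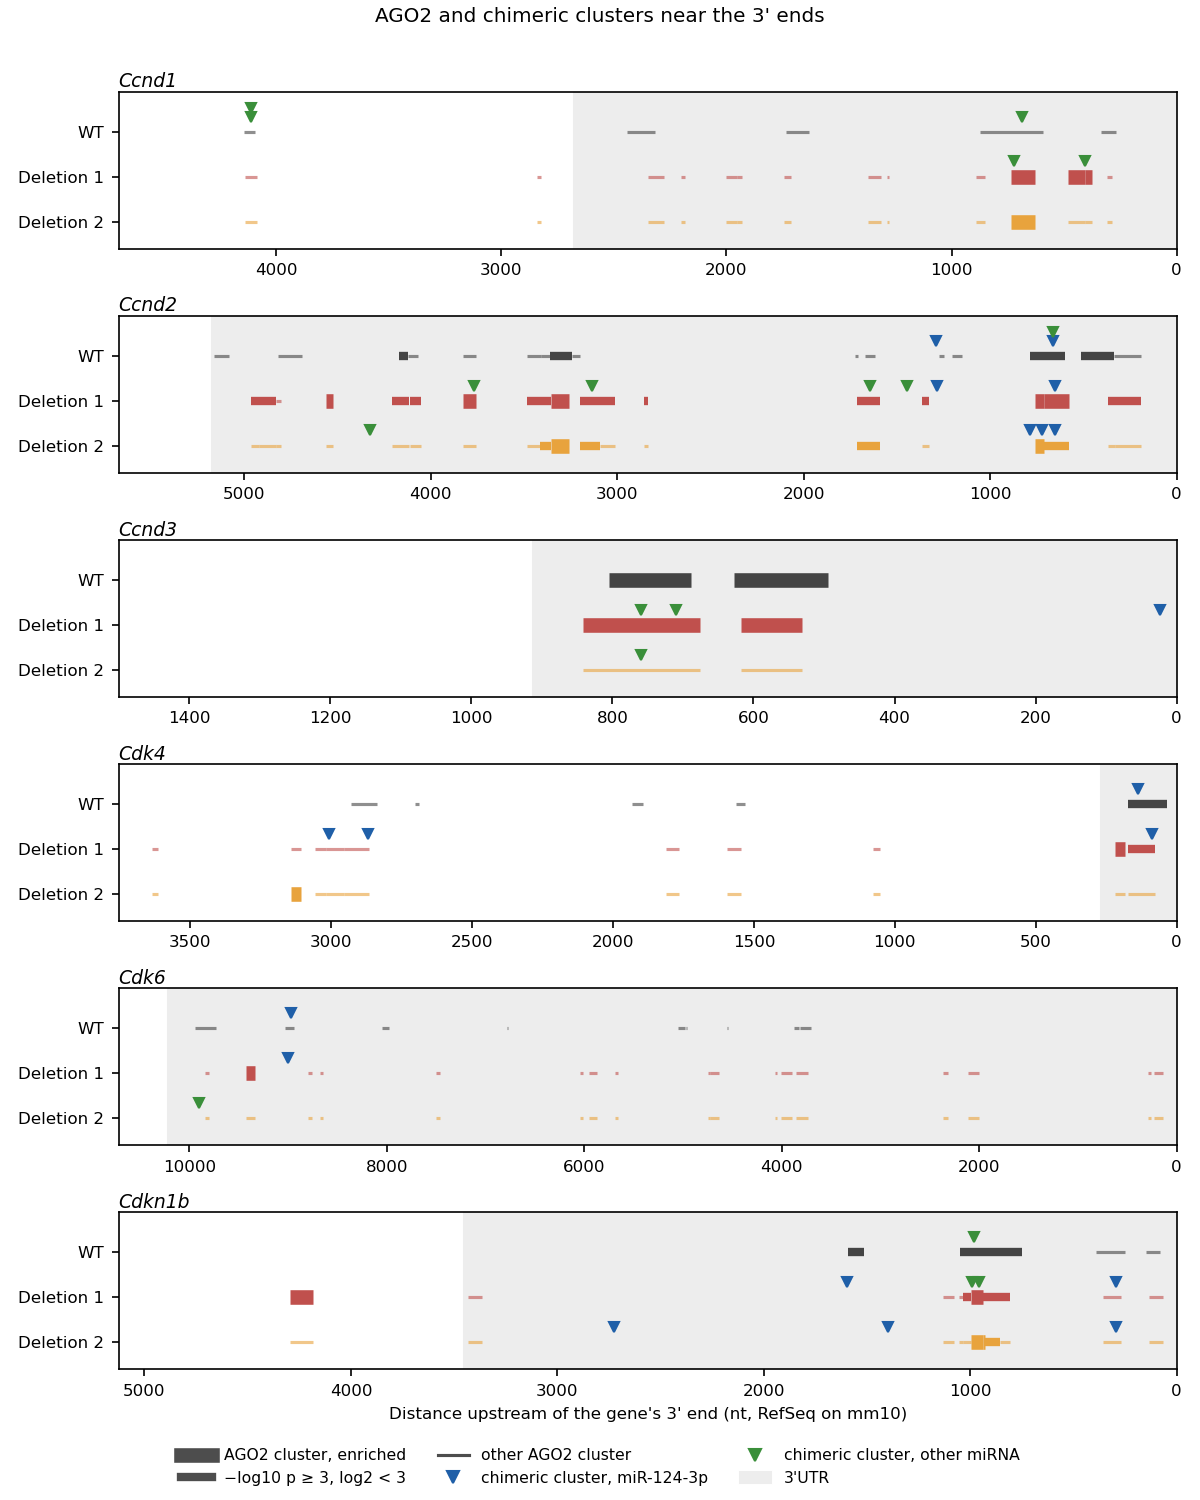
AGO2 clusters (bars, thickest where enriched) and chimeric clusters (triangles, blue for miR-124-3p and green for other miRNAs) by distance in nt upstream of the 3' end of each gene, for WT, Deletion 1 and Deletion 2, with the 3'UTR shaded. miR-124-3p triangles of WT and Deletion 1 stand above each other in *Ccnd2*, *Cdk4* and *Cdk6*, and the thick bars of *Cdk6* in its introns lie outside its panel.

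The kinases had fewer recurring sites. *Cdk4* (chr10:127063535-127067288, plus strand), the kinase partner of the D-type cyclins in most cells, had 5 clusters in WT and 10 in each Deletion library. Its 3'UTR in GENCODE runs 632 nt past the end of the RefSeq gene, and clusters in that stretch were not taken. Close to the RefSeq 3' end, WT had a cluster at chr10:127067116-127067255 with a log2 of 2.82 (25 over 3 reads) and a −log10 p of 4.02, and Deletion 1 had one at 127067118 to 127067211 with 2.38 and 3.68. Both were below the log2 limit. miR-124-3p was named over this place in WT (127067092 to 127067213, score 8.63) and Deletion 1 (127067155 to 127067248, score 3.31), and not in Deletion 2. The enriched *Cdk4* clusters were others, each in 1 library. In Deletion 1 it was the nearby chr10:127067072-127067104, which the miR-124-3p chimeric cluster of WT partly overlapped. The log2 there was 3.26 in Deletion 1 (11 over 2 reads) and 2.25 in Deletion 2, with a −log10 p of 0.68. In Deletion 2 the enriched cluster was intronic, at chr10:127064147-127064181, with 3.71 (11 over 2 reads) where Deletion 1 had 1.80. WT had no AGO2 cluster at either. Deletion 1 further named miR-124-3p in 2 coding-exon clusters, with scores of 3.13 and 6.

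*Cdk6* (chr5:3341004-3531008, plus strand), the second kinase partner and the longest of the 6 genes, had 29 clusters in WT and 47 in each Deletion library, of which 20 and 29 lay in introns. WT was enriched at 2 intronic sites. At chr5:3479793-3480020 the log2 was 3.22 in WT (33 over 3 reads, 228 nt), and in the 79-nt Deletion cluster 2.67 in Deletion 1 (11 over 3) and 0.25 in Deletion 2. Close by, at chr5:3480236-3480391, it was 3.46 in WT (26 over 2), 3.80 in Deletion 1 (16 over 2) and 0.67 in Deletion 2. WT and Deletion 1 were thus both higher than Deletion 2 at both places. The −log10 p of Deletion 2 was 0 at the first place and 0.20 at the second. Read pairs were sought only where the −log10 p was at least 1. None was therefore sought for Deletion 2 here, and its counting error is unknown. Deletion 1 alone was enriched at another place in the same intronic stretch, chr5:3479613-3479732, with a log2 of 4.50 where Deletion 2 had 1.25. Deletion 2 was enriched over 2 adjoining clusters at chr5:3356522-3356634, both at 4.95 (13 over 1 read), where Deletion 1 had 0.80 and WT no cluster. In the 10217-nt 3'UTR the only enriched site was nucleotides 787 to 881 (chr5:3521578-3521672) in Deletion 1, with a log2 of 4.71 (15 over 1 read, 95% interval 2.01 to 10.1). Deletion 2 had 1.25 there with a −log10 p of 0.30. miR-124-3p was named in *Cdk6* at overlapping positions in WT (nucleotides 1194 to 1297, score 3.71) and Deletion 1 (1158 to 1266, score 4.92), away from any enriched cluster. Deletion 1 also named let-7c-5p in an intron, and Deletion 2 miR-449a-5p at nucleotides 291 to 345 with no seed match.

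*Cdkn1b* (chr6:134920401-134925525, plus strand), the inhibitor, had 5 clusters in WT and 12 in each Deletion library. Its main site lay at nucleotides 2457 to 2524 of the 3439-nt 3'UTR (chr6:134924531-134924598). The cluster with the highest −log10 p was taken in each library, of 127 nt in WT, 57 nt in Deletion 1 and 11 nt in Deletion 2. Its log2 was 2.54 in WT (55 over 8 reads, 95% interval 1.46 to 3.82) and 3.22 in Deletion 1 (59 over 11, 2.28 to 4.30). In Deletion 2 it was 3.93 (32 over 5, 2.56 to 5.65). In the 57-nt cluster Deletion 2 had 3.17, and in the 11-nt cluster Deletion 1 had 2.86. The order of the Deletion libraries thus depends on the cluster taken. All 3 libraries had a cluster with a −log10 p of at least 6.57 here, the intervals overlapped, and WT was under the log2 limit. The chimeric clusters at this site named different miRNAs. WT named miR-125b-5p with a score of 5, Deletion 1 named let-7i-3p in 2 adjoining clusters with scores of 4.49 and 5.65, and Deletion 2 named none. None of these held a 6-nt or 7-nt match to the miRNA it named. In the coding exon, chr6:134921229-134921343 was enriched in Deletion 1 with a log2 of 4.01 (37 over 4 reads) and not in Deletion 2 (1.84, −log10 p 1.72), and WT had no cluster. miR-124-3p was named at nucleotides 3126 to 3188 in both Deletion libraries (scores 8.44 and 4.24), and elsewhere once in Deletion 1 and in 2 places in Deletion 2, but not in WT.

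**Figure D4:**
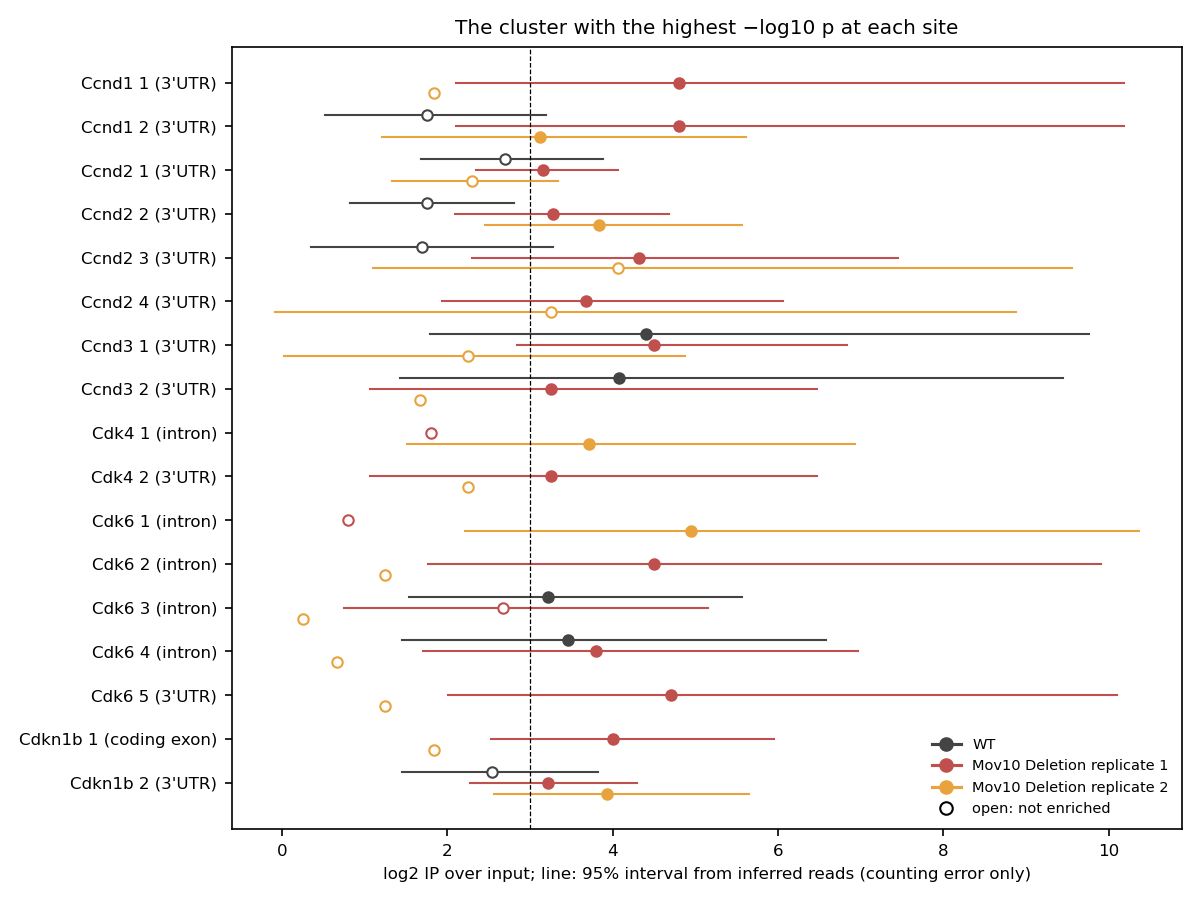
log2 IP over input with its 95% interval from inferred reads (counting error only) of the cluster with the highest −log10 p at each of the 17 sites, by library, with filled points enriched and the limit of 3 dashed. A missing interval means that no read pair was inferred. Sites are numbered within each gene in order of position. At the second site of *Ccnd2* the WT point lies below both Deletion intervals, and Deletion 2 at the first *Ccnd2* site was enriched in its other cluster. The Deletion points at the second site of *Cdkn1b* are from different clusters.

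Over the 6 genes, miR-124-3p took 5 of 10 assignments in WT, 9 of 21 in Deletion 1 and 6 of 9 in Deletion 2. Among all assignments in genes it took 42.4%, 35.0% and 37.0%. The genes that carried it numbered 3 in WT, 5 in Deletion 1 and 2 in Deletion 2, and *Ccnd1* carried it in none. Chimeric clusters of any miRNA lay in 5, 6 and 4 of the 6 genes, beside 41.5%, 46.6% and 32.7% of all genes with an AGO2 cluster. Assignments that lay on an enriched AGO2 cluster numbered 0 of 10 in WT, 8 of 21 in Deletion 1 and 2 of 9 in Deletion 2, beside 19.7%, 14.5% and 13.6% of all assignments in genes. On an AGO2 cluster of any strength lay 9, 15 and 5, beside 72.8%, 53.9% and 55.8%. Of the 10 WT assignments, 5 overlapped a Deletion cluster that named the same miRNA, 4 of miR-124-3p and 1 of miR-9-5p, beside 39.1% of all WT assignments. As WT clusters were listed separately from those of the Deletion brains, these 5 are recurrences in differently called lists. The 3 assignments shared by the Deletion libraries, in *Ccnd2*, *Ccnd3* and *Cdkn1b*, have the same coordinates in both. The score of the assignments in the 6 genes had a median of 4.86 in WT, 4.52 in Deletion 1 and 4.35 in Deletion 2, beside 4.65, 4 and 4 over all assignments.

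**Figure D5:**
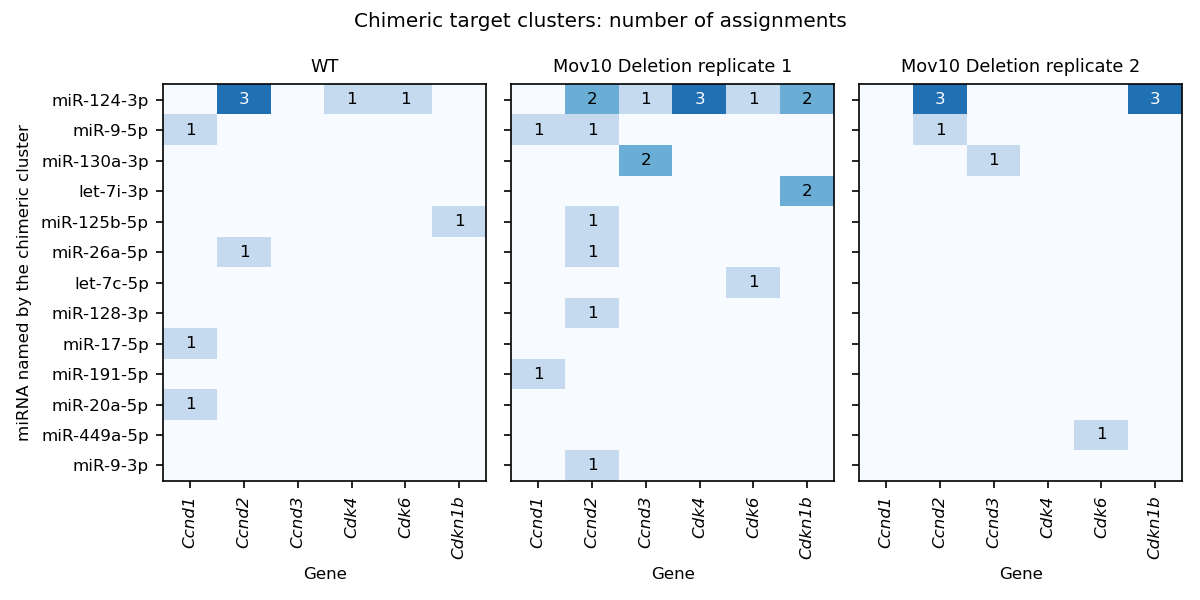
Number of chimeric assignments by miRNA (rows) and gene (columns) in WT, Deletion 1 and Deletion 2. miR-124-3p fills the top row in *Ccnd2* in all 3 libraries, and most other miRNAs appear once.

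Several miRNA families are known as regulators of these genes in other settings. The lists hold 10, 21 and 9 assignments in the 6 genes, too few to show a family that takes a small share of all assignments, so a count of 0 or 1 is no sign of a lower share. The miR-221 and miR-222 family, known for *Cdkn1b*, had 10, 31 and 20 assignments in the whole WT, Deletion 1 and Deletion 2 lists (0.0453%, 0.102% and 0.149%) and 0 in the 6 genes. The single seed match to miR-221-3p (ATGTAGC) in the *Cdkn1b* 3'UTR, at nucleotide 2357, lay under no AGO2 cluster with a −log10 p of at least 3. Below that limit, the cluster at nucleotides 2319 to 2372 covered it in both Deletion libraries. Its log2 was 0.80 in Deletion 1 and 1.74 in Deletion 2, with −log10 p values of 0.51 and 1.30. The miR-15 and miR-16 family, known for D-type cyclins, had 393, 617 and 261 assignments in all (1.78%, 2.02% and 1.94%) and 0 in these genes. Where the −log10 p reached 3, AGO2 clusters covered its 7-nt match TGCTGCT in 2 places. In *Ccnd1* it lay at nucleotide 2206, in the cluster at log2 4.80 in Deletion 1 and 1.84 in Deletion 2 (−log10 p 0.80). In *Ccnd2* it lay at nucleotide 1787, in a cluster with a log2 of 2.76 in Deletion 1 (35 over 9 reads) and 2.93 in Deletion 2 (16 over 5), and WT had a cluster over it with 1.34 (33 over 11) and a −log10 p of 2.05. Below that p limit, a WT cluster of *Cdk6* at nucleotides 5162 to 5235 (chr5:3525953-3526026), with a log2 of -0.021, also covered overlapping matches at 5177 and 5180. The share of 3'UTR windows as long as the Deletion cluster with this match was 2.77% in *Ccnd1* and 1.08% in *Ccnd2*. The 2 windows and the miRNA are shown with the match and the seed in capitals, from the GENCODE transcripts and RefSeq.
miR-15a-5p: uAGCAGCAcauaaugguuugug
*Ccnd1* and miR-15a-5p: ttgtgcatgccaccaTGCTGCTggcccggg
*Ccnd2* and miR-15a-5p: taatgtttcacggtgTGCTGCTattttaga
The miR-29 family, known for *Cdk6*, had 9, 36 and 18 assignments in all (0.0408%, 0.118% and 0.134%) and 0 in these genes. The miR-34 and miR-449 family had 19, 34 and 17 (0.0861%, 0.111% and 0.126%), of which 1 lay in these genes, the *Cdk6* cluster of Deletion 2, although the *Cdk6* 3'UTR held 4 matches to the seed of miR-34a-5p (CACTGCC) and none was under an AGO2 cluster with a −log10 p of at least 3. The let-7 family (5p arms, with miR-98) was more frequent in the whole lists, with 2107, 2913 and 1153 assignments (9.55%, 9.54% and 8.56%), and 1 lay in these genes, the intronic *Cdk6* cluster of Deletion 1. Families were picked after the assignments had been seen.

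The wider pathway was followed in 34 other genes of the G1 to S transition. Of these, 30 had an AGO2 cluster in WT and 31 in each Deletion library. An enriched one was found in 8 in WT, 19 in Deletion 1 and 7 in Deletion 2, beside 19.1%, 41.5% and 32.5% of all genes with a cluster, so that Deletion 2 lay below its background here. The 7 of Deletion 2 were enriched in both Deletion libraries. Enrichment in all 3 libraries held for 6, *E2f3*, *E2f5*, *E2f6*, *Fbxw7*, *Mycn* and *Rb1*. These are 3 E2F factors (*E2f3* and *E2f5* encode partners of pocket proteins, and *E2f6* a repressor that does not bind them), the ubiquitin ligase subunit that marks cyclin E, a MYC factor of neural progenitors and the retinoblastoma protein itself. No member was enriched in all 3 at a single site, and *Cdk6* was the only one of the 6 genes enriched in all 3 at any site. *E2f3* had its highest enriched log2 at 5.54 in WT, 5.38 in Deletion 1 and 4.62 in Deletion 2. For *Mycn* it was 4.66, 4.50 and 6.16, with 6 of 6, 5 of 8 and 4 of 8 clusters enriched. *E2f6* reached 6.0, 4.38 and 4.06, and *Rb1* 4.34, 3.97 and 4.25. *E2f5* had 4.24, 4.50 and 5.25, and *Fbxw7* had 3.56, 4.97 and 4.58. The phosphatase gene *Cdc25a* was enriched in WT alone (3.93), and the inhibitor *Cdkn2d* in both Deletion libraries and not in WT (4.38 and 4.71). *Cdk2*, *Cdkn2a* and *Cdkn2b* had no AGO2 cluster in any library, so their state was not measured. Chimeric clusters lay in 16, 18 and 11 of the 34 genes, beside 41.5%, 46.6% and 32.7% of all genes with an AGO2 cluster.

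For the members with a cluster at a −log10 p of at least 3 in every library, the gene with the most similar set of best log2 values was named, by the Euclidean distance over the 3 libraries among 3155 genes. For *Ccnd2* it was *Nell1* (distance 0.098), for *Cdk6* *Sorbs2* (0.108), for *Cdkn1b* *Lpgat1* (0.114) and for *Cdk4* *Wdr13* (0.122). Between 34 and 114 genes lay within 0.5 of each, so the nearest gene is one of many with like values over 3 points.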

How the data were processed

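Per the methods, the authors handled molecular identifiers and PCR duplicates with UMI-tools 1.1.1 and adapters with cutadapt 3.2. Reads matching repeats or rRNA were set aside, STAR 2.7.7a mapped the rest to mm10, and CLIPper called the clusters. The authors deposited for each AGO2 cluster its IP over input as a log2 and its p as a −log10, and a miRNA and a score for each chimeric cluster (lowest score 3). Whether clusters were called on pooled brains is not given in the sources used here. The 3 inputs enter only through the ratios.

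Genes were RefSeq gene bodies on GRCm38.p6 with strands from GENCODE vM39 by symbol (40478 of 49993). Exons come from 1 GENCODE transcript a gene. Clusters were placed on it by their distance from promoter sequences that occur in both assemblies with the same spacing, and no coordinates were converted. The RefSeq and GENCODE 3' ends lie 0 to 12 nt apart, except in *Cdk4*. Reads of clusters in the member genes were inferred only where the −log10 p was at least 1. That value was matched within 0.001, with up to 60 input reads. The search was run on simulated data made with the same model, which cannot show that the model fits the authors' p-values. Of sampled clusters in the data, a read pair was found for 100% in WT, 96.75% in Deletion 1 and 91.5% in Deletion 2. The members, lists and thresholds were chosen with earlier results of these data known. Named beside the members are pathway genes enriched in all libraries, each member's nearest gene, tissue markers and *Mov10*. Pathway genes enriched in WT alone, in both Deletion libraries and not WT, or without a cluster in any library are named too. These were picked by that pattern. Analyses used Python 3.11.15, pandas 2.3.3 and scipy 1.17.1. A further sequence is not reported here.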

Additional observations from a re-analysis of the deposited data

How the results depend on the processing

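Of 67 recomputed values, 47 stayed close to the main value (counts within 1.5 times, shares within their interval) and 20 moved. A −log10 p of at least 5 left 2 enriched clusters in WT and 5 in Deletion 2, enrichment in 3 genes in Deletion 2 and in 3 in both Deletion libraries, and among the 34 pathway genes 9 in Deletion 1, 4 in Deletion 2 and 4 in both. A log2 of at least 2 gave 9, 30 and 13 enriched clusters in WT, Deletion 1 and Deletion 2, and 5 enriched genes in WT, as many as in Deletion 2 at that limit. Requiring 16 inferred IP reads in every library, chosen after seeing the data, left 3 clusters in 2 genes in Deletion 2, *Ccnd2* and *Cdkn1b*, while WT also had 2. A score of at least 5 left 5, 8 and 2 assignments, in 3 genes in WT and 2 in Deletion 2, and clusters naming a single miRNA left 6 assignments in WT. Leaving out either Deletion library in turn gave 5 to 6 enriched members and 7 to 19 pathway genes, the higher number in each case without Deletion 2. No paired analysis was possible because there is 1 WT library and no test was made. Few reads limit what can be seen, and the input is a single inferred read under many enriched clusters. A missing cluster or chimera is no sign that AGO2 or the miRNA was absent there, and why it is missing was not tested.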
